A study of Mus musculus with 12 samples.

Results

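The response of the hippocampus to THC (delta-9-tetrahydrocannabinol, the psychoactive agent of cannabis) was described here in mice of a DISC1 mutant line, over all genes. The libraries were chosen by the genotype, treatment and titles that the submitters gave them: 3 from mutant mice given THC (called mutant THC 1 to 3) and 3 from mutant mice given vehicle (mutant vehicle 1 to 3), which make 6 of the 12 libraries of the series. The labels call the mutants aDN-DISC1, on a C57BL/6 background, and by the title of the series the mice were exposed as adolescents and the vulnerability lies in astrocytes. The promoter that drives the mutant protein, the dose, the age, the sex and any pooling of animals are not given in the sources used here. For comparison, 3 libraries from control mice given THC and 3 from control mice given vehicle were used. These control libraries were placed by their titles alone, since they carry no genotype entry. All 12 were made from total RNA of hippocampus after removal of ribosomal RNA.

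THC acts in the brain mostly through the CB1 receptor, which neurons carry at high levels and astrocytes at lower ones. DISC1, a scaffold whose gene is disrupted in a family with psychiatric illness, binds in mouse astrocytes serine racemase, the enzyme that makes the NMDA receptor co-agonist D-serine. NF-kB is a transcription factor of inflammatory genes, among them the gene of COX-2 (Ptgs2), which starts prostaglandin synthesis. Complement proteins tag cells and synapses for removal, MHC class II molecules show peptides to T cells, and interferon-induced genes limit viruses. All 3 groups of genes are part of what reactive glia and immune cells at the borders of the brain can express.

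Total expected counts were 33165903 to 38871319 in the mutant THC libraries and 37015107 to 38954734 in the mutant vehicle libraries, and 35779460 to 41389957 over the 6 control libraries. By the numbers in the labels, mutant THC libraries were 5, 12 and 3 and mutant vehicle libraries 8, 9 and 10, and the labels give no batch. Control THC libraries were 2, 1 and 4 and control vehicle libraries 11, 7 and 6. Apart from mutant THC 2, every THC library thus had a lower number than every vehicle library. An effect of this order was not tested. Mouse Disc1 did not mark the genotype, at 2.28, 3.04 and 1.42 CPM (counts scaled to library size) in mutant THC 1 to 3 and 2.78, 2.49 and 2.36 CPM in mutant vehicle 1 to 3, against 1.79 to 2.58 CPM in the 6 control libraries. Prm1, a protamine gene known from earlier results of these data to separate the genotypes, had 102, 35 and 73 counts in mutant THC 1 to 3 and 111, 87 and 61 counts in mutant vehicle 1 to 3. It had 0 or 1 count in each of the 6 control libraries. Markers of astrocytes (Aqp4), microglia (Cx3cr1), dentate gyrus (Prox1) and CA1 (Fibcd1) were present in every library, at 222 to 328, 50.1 to 68.7, 30.8 to 97.8 and 87.8 to 168 CPM. Markers of 2 neighbouring tissues set libraries apart. Choroid plexus genes summed to 575 CPM in mutant THC 2 against 5502 to 18406 CPM in the other 5 mutant libraries. Striatal genes summed to 9728 CPM in mutant THC 3 and 1642 CPM in mutant vehicle 3 against 868 to 1027 CPM in the other 10 libraries.

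No gene passed an adjusted p of 0.05 for THC in mutant mice (edgeR quasi-likelihood test, Benjamini-Hochberg over 15802 genes, smallest adjusted p = 0.81), which is 0% of the genes tested. At an unadjusted p under 0.05 there were 906 genes (5.73%), of which 400 were higher (2.53%) and 506 lower (3.2%) with THC. DESeq2 called 3 genes, all lower with THC, and limma-voom called 0. The groups of 3 did not overlap for 1338 genes (8.47%), with 643 higher (4.07%) and 695 lower (4.4%). The median log2 fold change of all genes was -0.01, its median size regardless of sign was 0.09, and 52.5% of the genes had a fitted value below 0. All single genes below are therefore given as values that did not pass, unless a sentence names another test. The labels give 3 per group without saying that each is a separate mouse, so the p-values reflect variation among libraries only.

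**Figure D1:**
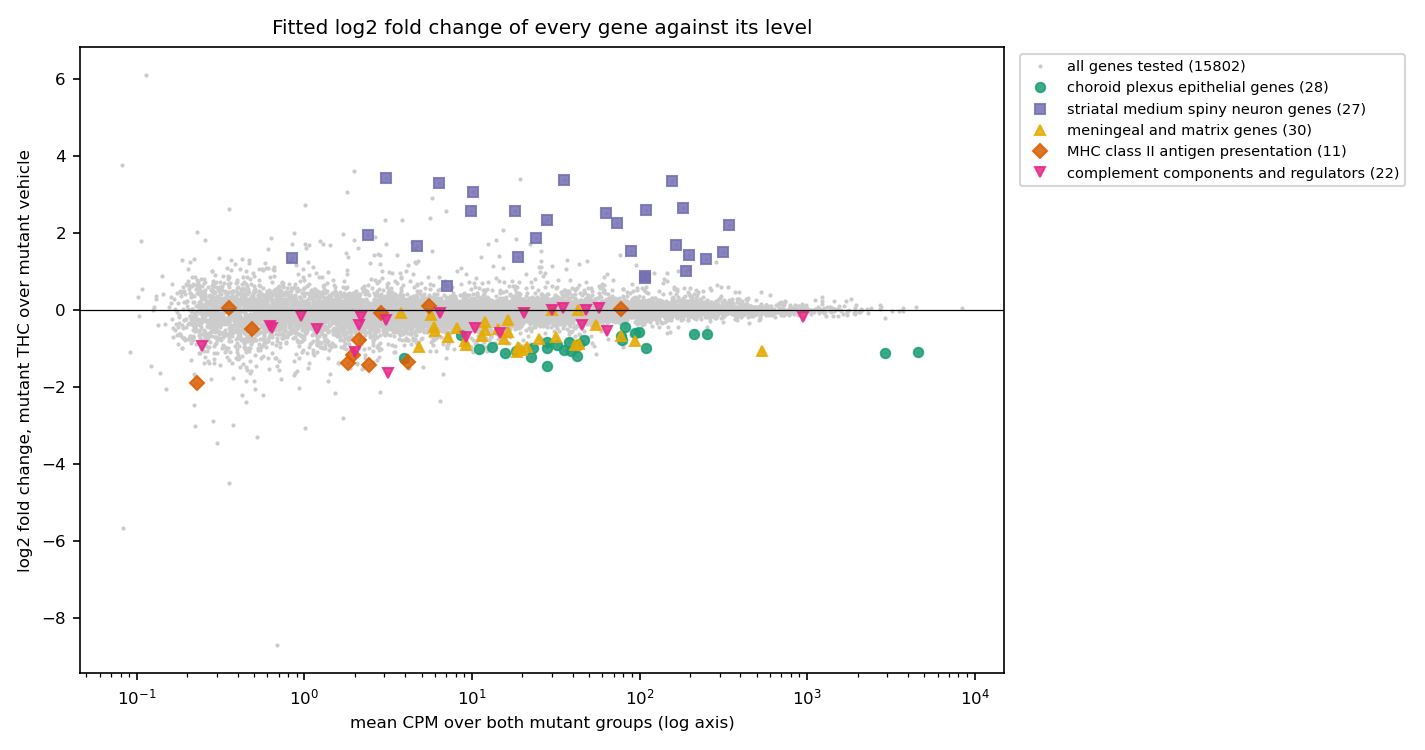
Fitted log2 fold change of mutant THC over mutant vehicle (y axis) against the mean level over both mutant groups in CPM (x axis, log scale) for 15802 genes in grey, with 5 gene lists in colour. All 28 choroid plexus genes lie below 0 and all 27 striatal genes above 0, while class II and complement genes lie mostly below 0 at low to middle levels.

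Genes of MHC class II presentation were fitted lower in mutant THC than in mutant vehicle libraries for 8 of 11 tested members. Of the 11, 6 were lower and 0 higher at an unadjusted p under 0.05, where 3.2% of all genes were lower, and the list's median log2 fold change was -0.78 against -0.01 over all genes. H2-Aa and H2-Eb1, which encode the alpha chain of I-A and the beta chain of I-E, lie on chromosome 17 at 34282744 to 34287823 and 34305867 to 34316674 (GRCm38.p6). Their promoters are shown because the Y box, a CCAAT-type element of class II promoters that the factor NF-Y binds, is found in both (RefSeq sequences, GRCm38.p6, from 250 bases before to 50 after the start, with the Y box CTGATTGG in capitals). The first is chr17:34287774-34288073 on the minus strand and the second chr17:34305617-34305916 on the plus strand.
H2-Aa: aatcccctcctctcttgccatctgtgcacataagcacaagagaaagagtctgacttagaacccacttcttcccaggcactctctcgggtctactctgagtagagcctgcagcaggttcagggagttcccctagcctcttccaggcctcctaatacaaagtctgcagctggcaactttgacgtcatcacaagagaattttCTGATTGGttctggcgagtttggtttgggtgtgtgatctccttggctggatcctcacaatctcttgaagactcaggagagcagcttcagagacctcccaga
H2-Eb1: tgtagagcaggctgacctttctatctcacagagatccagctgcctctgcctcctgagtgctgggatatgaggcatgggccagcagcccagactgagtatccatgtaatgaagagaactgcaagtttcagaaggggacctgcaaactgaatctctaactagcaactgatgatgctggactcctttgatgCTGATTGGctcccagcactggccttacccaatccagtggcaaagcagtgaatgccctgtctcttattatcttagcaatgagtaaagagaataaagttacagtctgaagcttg
The Y box starts 51 bases before the start of H2-Aa and 62 before that of H2-Eb1. On either strand it occurs in 3 of the 7 class II genes that had a window, and in 4.1% of 32851 windows in all.

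H2-Aa was at 1.68, 1.31 and 0.981 CPM in mutant THC 1 to 3 and at 4.23, 2.32 and 3.98 CPM in mutant vehicle 1 to 3, a log2 fold change of -1.41 ± 0.32 (SE). H2-Eb1 was at 1.5, 1.14 and 0.981 CPM in mutant THC 1 to 3 and at 3.1, 2.30 and 2.69 CPM in mutant vehicle 1 to 3 (-1.16 ± 0.28). In both genes the highest THC library stayed below the lowest vehicle library, and mutant vehicle 2 was the lowest of its group. H2-Ab1, the beta chain partner of H2-Aa, was at 1.5, 0.881 and 0.671 CPM in mutant THC 1 to 3 and at 3.28, 1.67 and 2.92 CPM in mutant vehicle 1 to 3 (-1.37 ± 0.31). Cd74, the invariant chain that guards the class II groove, was at 2.64, 2.73 and 1.73 CPM in mutant THC 1 to 3 and at 7.14, 4.08 and 6.62 CPM in mutant vehicle 1 to 3 (-1.33 ± 0.27). Cd74 was 1 of the 3 genes DESeq2 called (adjusted p = 0.031). These are low counts, with 26 to 56 per library for H2-Aa, H2-Ab1 and H2-Eb1 in mutant THC and 62 to 161 in mutant vehicle. Ciita, the coactivator that switches on class II genes and a member named after its values were seen, was at 0.180, 0.0568 and 0.0516 CPM in mutant THC 1 to 3 and at 0.394, 0.351 and 0.330 CPM in mutant vehicle 1 to 3. Not all members were lower: H2-DMa, which edits the peptide load (0.11 ± 0.12), and the lysosomal protease gene Ctss (0.03 ± 0.10), also named after their values were seen, overlapped between groups. Leaving out mutant THC 1 gave the list a median of -1.23, and leaving out mutant THC 2 gave -0.53.

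Complement genes were fitted below 0 for 18 of 22 tested members. Of the 22, 6 were lower and 0 higher at an unadjusted p under 0.05, where 3.2% of all genes were lower. The median log2 fold change was -0.38. C3, the central component that all activation routes cleave, was at 1.59, 1.68 and 1.34 CPM in mutant THC 1 to 3 and at 3.96, 5.19 and 5.05 CPM in mutant vehicle 1 to 3 (log2 fold change -1.62 ± 0.36), which is 52 to 59 counts per THC library and 151 to 199 per vehicle library. The mean CPM of the 2 groups stood at a ratio of 0.325, and C3 was named because its p-value was among the smallest of the list. Serping1, the C1 inhibitor, was at 7.81, 7.99 and 5.27 CPM in mutant THC 1 to 3 and at 13.7, 9.0 and 11.3 CPM in mutant vehicle 1 to 3 (-0.69 ± 0.19). C4b, a component of the classical route, was at 46.4, 37.5 and 34.4 CPM in mutant THC 1 to 3 and at 57.0, 50.6 and 46.6 CPM in mutant vehicle 1 to 3 (-0.38 ± 0.14). In both genes every THC library lay below every vehicle library. C4b has a near-identical copy, C4a, so how reads were split between them is uncertain. The list's median was -0.25 without mutant vehicle 3.

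**Figure D2:**
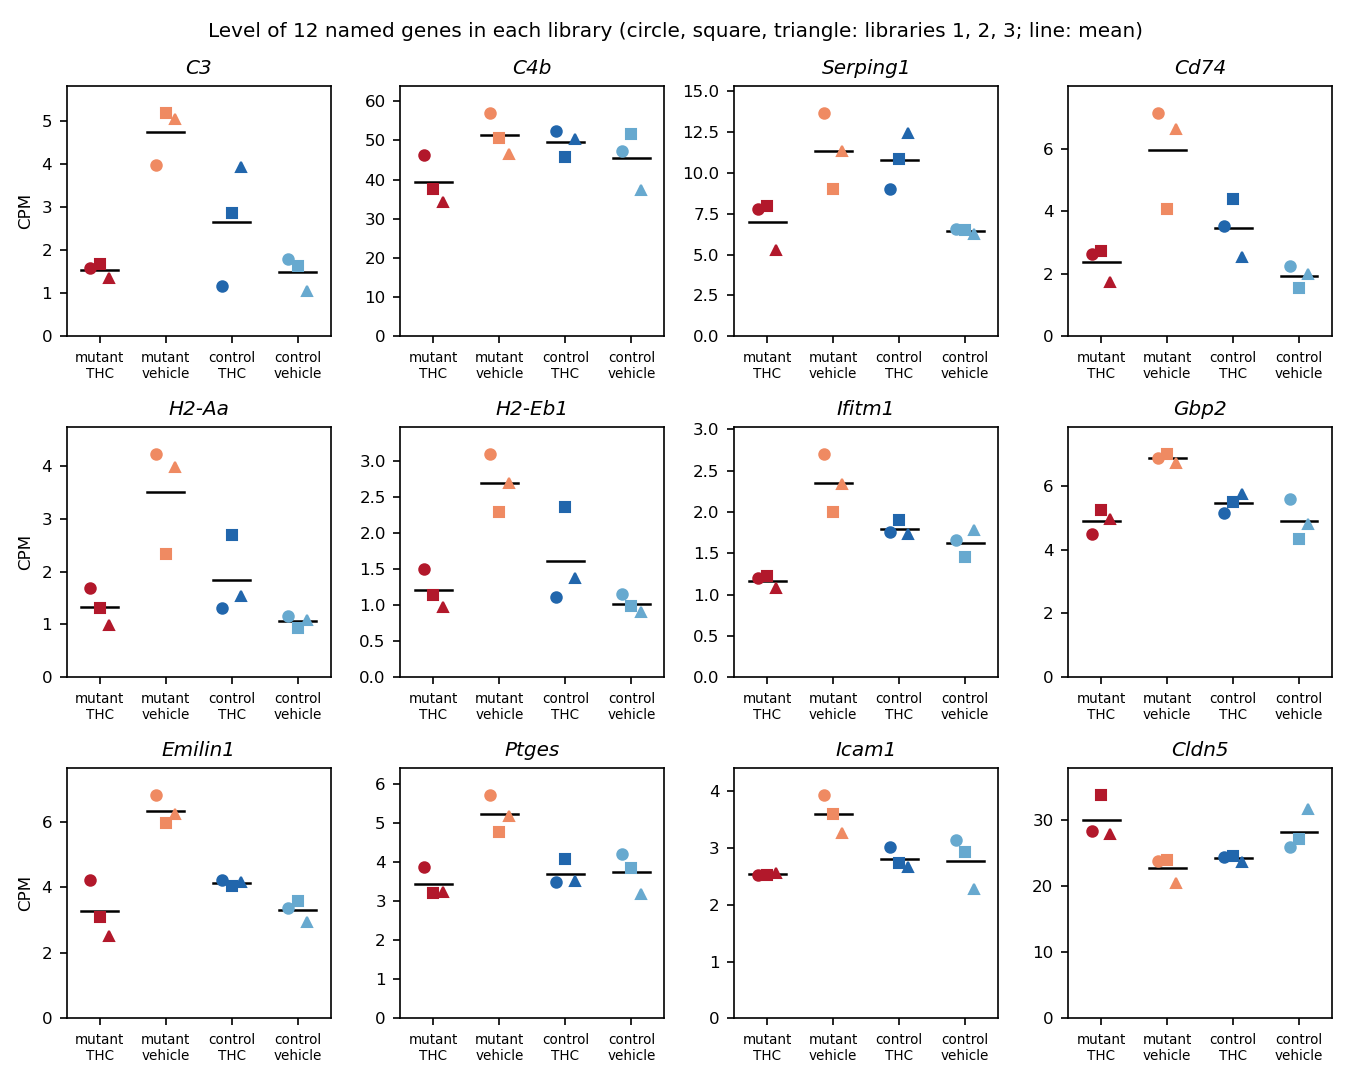
Level in CPM (y axes, from 0) of 12 genes in each of the 12 libraries, grouped as mutant THC, mutant vehicle, control THC and control vehicle, with the mean of each group as a line. For 11 genes the 3 mutant THC libraries lie below the 3 mutant vehicle libraries, and for Cldn5 they lie above them at 27.9 to 33.7 CPM against 20.4 to 23.9 CPM. The 12 were picked from the named genes, most of which were named for a small p in this contrast. Their separation is therefore no separate support for a difference. Over all genes tested, the groups did not overlap in 8.47%.

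Interferon-induced genes were fitted below 0 for 30 of 31 tested members. Of the 31, 9 were lower and 0 higher at an unadjusted p under 0.05, where 3.2% of all genes were lower. In 10 the THC group lay lower without overlap, as it did in 4.4% of all genes. The median log2 fold change was -0.32. Ifitm1, a membrane protein that blocks virus entry, had the smallest p-value of all genes named. It was at 1.2, 1.22 and 1.08 CPM in mutant THC 1 to 3 and at 2.70, 2.00 and 2.33 CPM in mutant vehicle 1 to 3 (-1.0 ± 0.16), and DESeq2 called it (adjusted p = 0.031). Its relatives, whose near-identical stretches make the split of reads uncertain, were lower too. Ifitm3 was at 7.0, 6.79 and 6.22 CPM in mutant THC 1 to 3 and at 9.74, 7.67 and 10.1 CPM in mutant vehicle 1 to 3 (-0.46 ± 0.14). Ifitm2 had a log2 fold change of -0.49 ± 0.18, with groups that overlapped. Gbp2, a GTPase that attacks the vacuoles of intracellular pathogens and a marker of reactive astrocytes, was at 4.48, 5.23 and 4.96 CPM in mutant THC 1 to 3 and at 6.88, 7.0 and 6.72 CPM in mutant vehicle 1 to 3 (-0.49 ± 0.11). The vehicle libraries of Gbp2 had an SD of 0.138 CPM (n = 3), and no THC library reached them. Gbp2 was named for its small p-value, so these values give no separate support for a difference. Its promoter at chr3:142620413-142620712 on the plus strand (RefSeq, GRCm38.p6) is printed for the interferon-stimulated response element that it holds 59 bases before the start, in capitals and on the opposite strand.
Gbp2: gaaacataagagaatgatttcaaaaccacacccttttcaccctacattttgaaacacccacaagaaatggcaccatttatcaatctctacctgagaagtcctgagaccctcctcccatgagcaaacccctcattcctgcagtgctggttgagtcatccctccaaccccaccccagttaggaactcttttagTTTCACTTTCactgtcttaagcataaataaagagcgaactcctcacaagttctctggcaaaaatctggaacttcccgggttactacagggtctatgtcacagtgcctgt
The element was searched on both strands as GAAA, any 2 bases and GAAA again. It was found in 18 of the 26 interferon-induced genes that had a window (69.2%) and in 3.44% of all windows.

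Genes of MHC class I and peptide loading lay closer to vehicle. Of 16 tested members, 14 were fitted below 0, and 6 were lower and 0 higher at an unadjusted p under 0.05. At that p 3.2% of all genes were lower. The median log2 fold change was -0.21. Tap2, a subunit of the transporter that brings peptides into the endoplasmic reticulum, was at 8.71, 8.21 and 7.02 CPM in mutant THC 1 to 3 and at 9.71, 10.3 and 12.1 CPM in mutant vehicle 1 to 3 (-0.42 ± 0.12). H2-K1, a classical class I heavy chain, was at 26.1, 22.6 and 24.8 CPM in mutant THC 1 to 3 and at 31.6, 27.5 and 30.2 CPM in mutant vehicle 1 to 3 (-0.28 ± 0.08). Neither gene's groups overlapped. H2-M3 (-0.54 ± 0.19) and the peptide trimming enzyme gene Erap1 (-0.23 ± 0.09) were the next in p, with groups that overlapped. Class I genes share long stretches, so the split of reads among them is uncertain.

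The study's title names NF-kB and COX-2, while the values here are RNA of whole hippocampus, not protein activity or astrocytes alone. The 15 tested NF-kB subunit and inhibitor genes lay at a median log2 fold change of 0.01, with 0 at an unadjusted p under 0.05 in either direction. Nfkb1 was at 24.5, 23.3 and 25.4 CPM in mutant THC 1 to 3 and at 26.4, 25.5 and 26.9 CPM in mutant vehicle 1 to 3 (-0.11 ± 0.06). Rela was at 12.9, 12.5 and 13.6 CPM in mutant THC 1 to 3 and at 13.7, 14 and 12.8 CPM in mutant vehicle 1 to 3 (-0.05 ± 0.07). The difference is small in Nfkb1, whose groups do not overlap, and within the spread in Rela. Nfkbia, the inhibitor that NF-kB itself induces, had a log2 fold change of 0.06 ± 0.11 with overlapping groups. Inflammatory targets of NF-kB had a median of -0.26 over 18 tested members. Of these, 4 were lower and 0 higher at an unadjusted p under 0.05, where 3.2% of all genes were lower. Icam1, an adhesion molecule for leukocytes, was at 2.52, 2.53 and 2.56 CPM in mutant THC 1 to 3 and at 3.94, 3.59 and 3.27 CPM in mutant vehicle 1 to 3 (-0.50 ± 0.14). The 3 THC libraries of Icam1 were nearly equal and all below the vehicle libraries. Irf1, a transcription factor of interferon responses, was at 7.15, 7.67 and 5.37 CPM in mutant THC 1 to 3 and at 8.40, 9.40 and 8.70 CPM in mutant vehicle 1 to 3 (-0.39 ± 0.13). Csf1, a growth factor for microglia (-0.22 ± 0.08), and the chemokine gene Cxcl16 (-0.59 ± 0.24) also had groups that did not overlap. Without mutant THC 3 the values were -0.25 for Irf1 and -0.13 for Csf1, and without mutant vehicle 3 that of Cxcl16 was -0.36. The median of the targets was -0.42 without mutant THC 1.

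In the prostaglandin pathway Ptgs2 itself was at 24.0, 36.1 and 17.0 CPM in mutant THC 1 to 3 and at 34.9, 23.7 and 31.0 CPM in mutant vehicle 1 to 3 (log2 fold change -0.22 ± 0.25). The libraries of the 2 groups interleave, and without mutant THC 3 the value was 0.01. Ptges, the inducible prostaglandin E synthase, was at 3.88, 3.21 and 3.23 CPM in mutant THC 1 to 3 and at 5.72, 4.78 and 5.17 CPM in mutant vehicle 1 to 3 (-0.60 ± 0.14). Hpgd, which breaks prostaglandins down, was at 7.72, 5.68 and 7.2 CPM in mutant THC 1 to 3 and at 8.40, 8.51 and 10.7 CPM in mutant vehicle 1 to 3 (-0.42 ± 0.14). In both Ptges and Hpgd every THC library lay below every vehicle library. They were the only 2 of the 23 tested members to lie lower without overlap, as 4.4% of all genes did. Ptgds, the prostaglandin D synthase that meninges and choroid plexus secrete, was at 531, 322 and 201 CPM in mutant THC 1 to 3 and at 1176, 491 and 522 CPM in mutant vehicle 1 to 3 (-1.05 ± 0.44). Mutant vehicle 1, the library with the highest meningeal markers, held the highest Ptgds, and the value was -0.53 without it. Of the 23 tested members of the pathway, 6 were lower and 0 higher at an unadjusted p under 0.05. At that p 3.2% of all genes were lower. The median of the pathway was -0.19. That median moved to -0.06 when mutant THC 3 was left out, to -0.09 for mutant vehicle 1, and to -0.08 for mutant THC 3 and mutant vehicle 3 together.

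Reactive astrocyte genes were fitted below 0 for 26 of 31 tested members, and homeostatic astrocyte genes for 18 of 20. Of the 31 reactive genes, 9 were lower and 0 higher at an unadjusted p under 0.05, where 3.2% of all genes were lower. The median log2 fold change of the reactive list was -0.26. The list shares Gbp2, Serping1 and other members with the lists above. Iigp1, an interferon-inducible GTPase, was at 3.21, 3.15 and 2.35 CPM in mutant THC 1 to 3 and at 4.38, 4.78 and 4.29 CPM in mutant vehicle 1 to 3 (-0.63 ± 0.16). Cp, ceruloplasmin, a copper protein that oxidises iron, was at 29.7, 23.7 and 22.1 CPM in mutant THC 1 to 3 and at 35.7, 31.1 and 35.2 CPM in mutant vehicle 1 to 3 (-0.44 ± 0.12). Neither Iigp1 nor Cp had groups that overlapped. Gfap, the intermediate filament of astrocytes, was at 469, 432 and 285 CPM in mutant THC 1 to 3 and at 551, 484 and 463 CPM in mutant vehicle 1 to 3 (-0.34 ± 0.15). Mutant THC 3 was lowest in Gfap, mutant THC 1 lay inside the vehicle range, and the value was -0.15 without mutant THC 3. Leaving out mutant THC 2 gave the reactive list a median of -0.39, and leaving out mutant THC 3 together with mutant vehicle 3 gave -0.12, with 19 of 31 fitted below 0. The 20 homeostatic astrocyte genes had a median of -0.09 with 0 at an unadjusted p under 0.05. Without mutant THC 1 their median was -0.15, and 7 were lower and 1 higher at that p. Over all 15926 genes tested without that library, 1220 were lower and 1098 higher. In that reduced set 9 homeostatic genes lay lower with no overlap, against 1 with all libraries in, where 4.4% of all genes did. The share over all genes in the reduced set was not computed. Smaller groups separate more easily, so the 9 cannot be set against the 4.4%. The summed level of the homeostatic genes was 9113 to 11084 CPM in mutant THC and 10118 to 10826 CPM in mutant vehicle libraries.

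**Figure D3:**
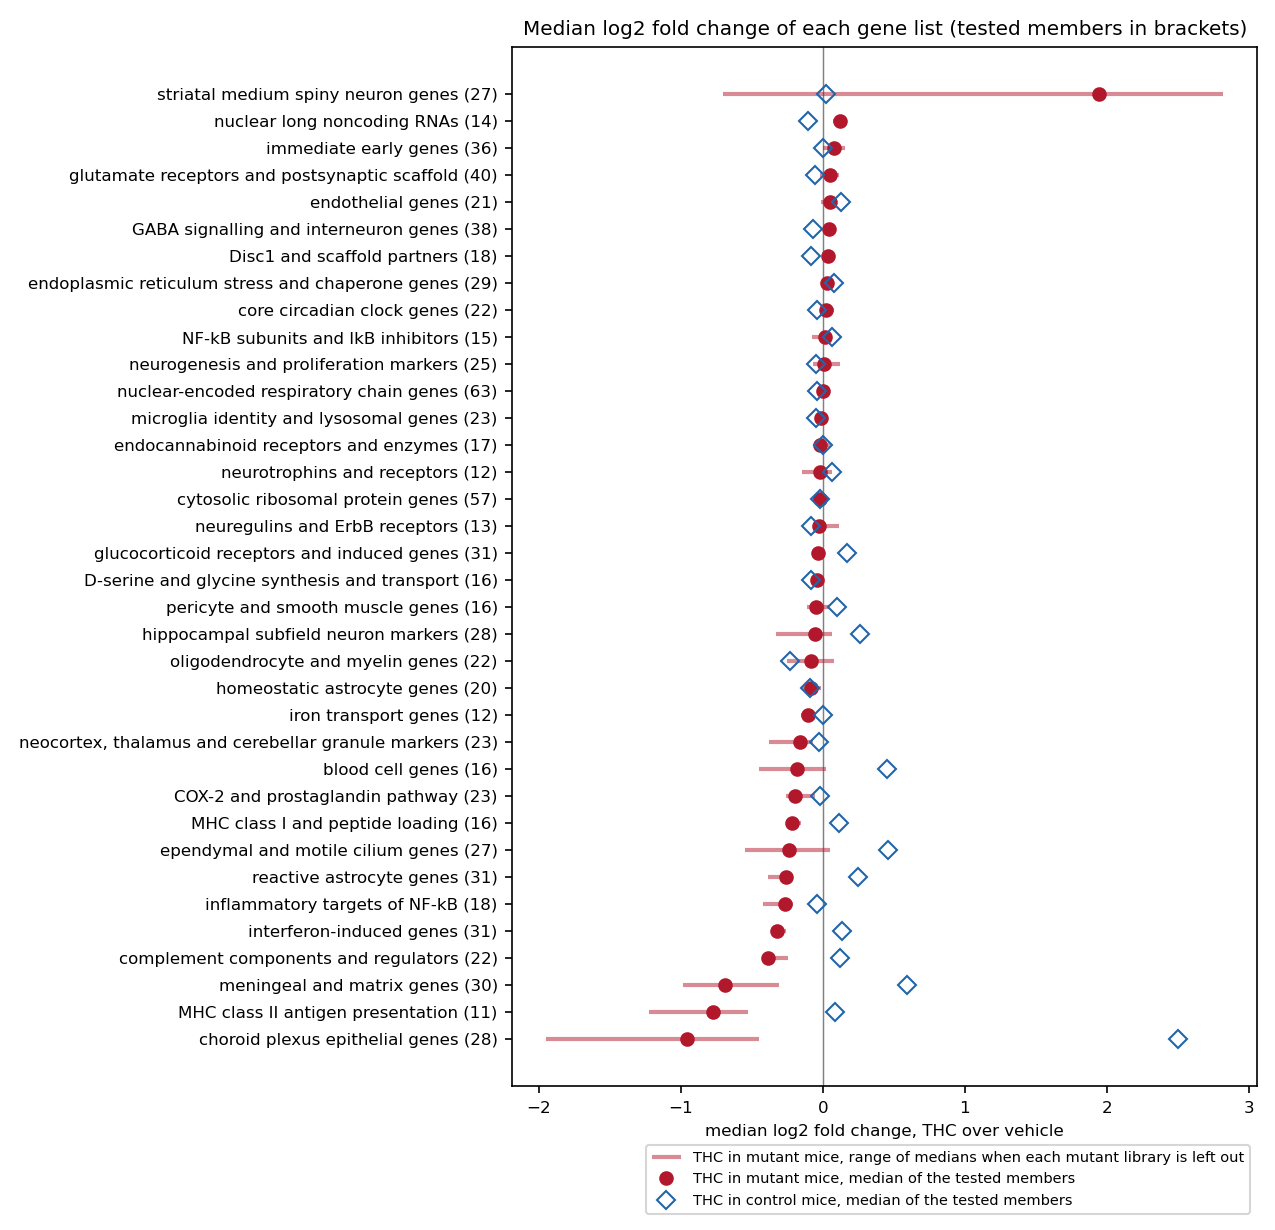
Median log2 fold change of THC over vehicle (x axis) for each of 36 gene lists (y axis), with filled circles for mutant mice, open diamonds for control mice, and bars for the range when each of the 6 mutant libraries is left out in turn. The class II (-0.78), meningeal (-0.69), complement (-0.38) and interferon-induced (-0.32) medians stay below 0 along their whole bars. So do those of other lists, among them choroid plexus (-1.95 to -0.45), class I and reactive astrocyte genes. The striatal bar runs from -0.70 to 2.82.

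Nearly all genes of the meninges and of the extracellular matrix were fitted lower beside the immune genes. Of 30 tested members, 29 were fitted below 0, and 11 were lower and 0 higher at an unadjusted p under 0.05. At that p 3.2% of all genes were lower. The median log2 fold change was -0.69. Emilin1, an elastic fibre protein, was at 4.24, 3.1 and 2.50 CPM in mutant THC 1 to 3 and at 6.83, 5.97 and 6.24 CPM in mutant vehicle 1 to 3 (-0.95 ± 0.17). DESeq2 called Emilin1 (adjusted p = 0.0021), and so did edgeR without mutant THC 1 (-1.18, Benjamini-Hochberg adjusted p = 0.045). Without that library edgeR also called Ddr2, a collagen receptor kinase gene (-0.82), and Cped1 (-1.25). With all libraries in, Ddr2 was at -0.46 ± 0.20 and Cped1 at -0.87 ± 0.23. The groups of Ddr2 overlapped, since mutant THC 1, at 26.8 CPM, lay above the 24.2 to 26.1 CPM of mutant vehicle. Those of Cped1 did not overlap. Col1a2, a chain of type I collagen, was at 39.7, 26.6 and 19.2 CPM in mutant THC 1 to 3 and at 77.4, 40.9 and 42.0 CPM in mutant vehicle 1 to 3 (-0.91 ± 0.28). Lum, a proteoglycan that spaces collagen fibrils, was at 8.47, 6.65 and 4.18 CPM in mutant THC 1 to 3 and at 11.9, 9.43 and 14.5 CPM in mutant vehicle 1 to 3 (-0.90 ± 0.29). In both, mutant THC 1 was the highest of its group and lay just below the lowest vehicle library. The summed level of the list was 1306, 736 and 608 CPM in mutant THC 1 to 3 and 2082, 1231 and 1358 CPM in mutant vehicle 1 to 3, and none of its defining markers Col1a1, Col1a2, Dcn and Lum was at 0 in any library. Leaving out mutant vehicle 1 moved the list's median to -0.31 and the value of Col1a2 to -0.54, and leaving out mutant THC 3 moved the median to -0.45.

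Choroid plexus and ependymal markers did not separate the groups. All 28 choroid plexus genes were fitted below 0 with a median log2 fold change of -0.96, yet 0 were at an unadjusted p under 0.05 and 0 had groups that did not overlap. Over all genes, 3.2% were lower at that p and 4.4% were lower without overlap, so these counts are near the shares over all genes. Ttr, transthyretin, was at 5969, 34.0 and 2857 CPM in mutant THC 1 to 3 and at 3639, 5241 and 9979 CPM in mutant vehicle 1 to 3. The median of the choroid plexus list moved to -0.45 when mutant THC 2 was left out, to -0.60 for mutant vehicle 3 and to -1.95 for mutant THC 1. The 27 ependymal genes had a median of -0.24, which was 0.05 without mutant vehicle 3. None of the defining markers Ttr, Kl, Folr1, Clic6, Kcnj13, Foxj1, Ccdc153 and Tmem212 was at 0 in any library. In whole tissue, fewer cells of a type and less RNA per cell cannot be told apart. With a choroid plexus score of each library as a covariate, the log2 fold change of C3 was -1.59, of Cd74 -1.27, of Ifitm1 -1.0, of Gbp2 -0.52 and of Emilin1 -0.93. List medians with that covariate were -0.54 for class II, -0.22 for complement, -0.23 for interferon-induced and -0.32 for reactive astrocyte genes. The part of the meningeal markers in these values was not tested.

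**Figure D4:**
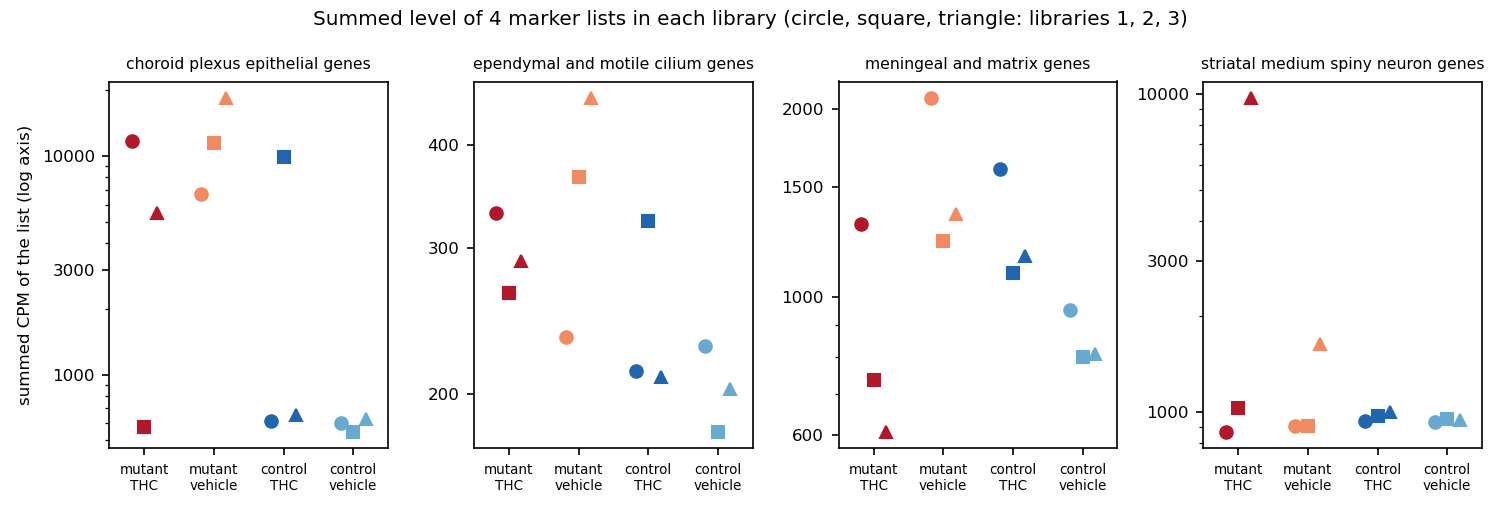
Summed CPM (y axes, log scale) of choroid plexus, ependymal, meningeal and striatal genes in each of the 12 libraries by group. Mutant THC 2 holds 575 CPM of choroid plexus genes, mutant vehicle 1 the highest meningeal sum at 2082 CPM, and mutant THC 3 stands apart in striatal genes at 9728 CPM.

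Macrophages at the brain's borders and blood cells were also represented. Mrc1, a mannose receptor of border macrophages, was at 13.1, 10.4 and 7.87 CPM in mutant THC 1 to 3 and at 16.5, 12 and 16.7 CPM in mutant vehicle 1 to 3 (-0.52 ± 0.18). Lyz2, a lysozyme of macrophages, was at 8.53, 6.99 and 8.44 CPM in mutant THC 1 to 3 and at 14.2, 9.21 and 21.2 CPM in mutant vehicle 1 to 3 (-0.90 ± 0.31). Lyz2 has a near-identical copy, so its reads may be split, and its value was -0.55 without mutant vehicle 3. Among microglial and lysosomal genes it was the only one of 23 tested members at an unadjusted p under 0.05, and that list's median was -0.02. Its summed level was 2843 to 3356 CPM in mutant THC and 3259 to 3406 CPM in mutant vehicle libraries. Of 16 tested blood cell genes, 1 was lower at an unadjusted p under 0.05, where 3.2% of all genes were lower. The blood cell sum was 556 to 716 CPM in mutant THC and 489 to 871 CPM in mutant vehicle libraries. The median of the blood cell list was -0.18, and it ran from -0.45 without mutant THC 1 to 0.02 without mutant vehicle 3.

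The 12 lower genes with the smallest p-values included 5 that are in none of the immune or matrix lists. Cnmd, chondromodulin, an inhibitor of vessel growth, was at 0.931, 1.45 and 1.11 CPM in mutant THC 1 to 3 and at 2.00, 3.32 and 4.57 CPM in mutant vehicle 1 to 3 (-1.5 ± 0.32). Ndp, norrin, a ligand that maintains brain vessels, was at 6.76, 5.97 and 5.73 CPM in mutant THC 1 to 3 and at 8.74, 8.29 and 7.76 CPM in mutant vehicle 1 to 3 (-0.43 ± 0.09). Serpinb9, an inhibitor of granzyme B, was at 11.5, 10.3 and 10.02 CPM in mutant THC 1 to 3 and at 14.7, 12.4 and 16.6 CPM in mutant vehicle 1 to 3 (-0.46 ± 0.10). All 3 had groups that did not overlap. The row NM_009444, which has no symbol here, had a log2 fold change of -0.31 ± 0.07. Cbln3, a marker of cerebellar granule cells, was at 0.721, 0.540 and 0.568 CPM in mutant THC 1 to 3 and at 3.62, 1.51 and 1.34 CPM in mutant vehicle 1 to 3 (-1.82 ± 0.39). Other granule cell markers were highest in the same library: in mutant vehicle 1 Gabra6 was at 1.68 CPM and Fat2 at 9.06 CPM, against at most 0.675 and 2.95 CPM in the other 11 libraries. Of the 23 tested markers of neocortex, thalamus and cerebellar granule cells 4 were lower and 0 higher at an unadjusted p under 0.05, with a median of -0.16. At that p 3.2% of all genes were lower.

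Among the 12 genes with the smallest p-values on each side, log2 fold changes were 0.23 to 0.53 for those higher with THC and -1.82 to -0.31 for those lower. Gabra2, the alpha 2 subunit of the GABA-A receptor, was at 40.6, 41.6 and 41.2 CPM in mutant THC 1 to 3 and at 35.5, 34.2 and 35.9 CPM in mutant vehicle 1 to 3 (log2 fold change 0.23 ± 0.05). Each group of Gabra2 varied by less than 1 CPM (SD 0.513 in mutant THC and 0.896 in mutant vehicle, n = 3). The ratio of mean CPM was 1.17. Gabra2 was picked for its small p-value, so these values give no separate support for a difference. Cldn5, the main tight junction protein of brain endothelium, was at 28.3, 33.7 and 27.9 CPM in mutant THC 1 to 3 and at 23.8, 23.9 and 20.4 CPM in mutant vehicle 1 to 3 (0.40 ± 0.10). Pecam1, an adhesion molecule between endothelial cells, was at 20.4, 20.5 and 18 CPM in mutant THC 1 to 3 and at 15.7, 17.3 and 15.8 CPM in mutant vehicle 1 to 3 (0.27 ± 0.07). Tek, the angiopoietin receptor (0.27 ± 0.09), was higher with groups that overlapped, and Itm2a (-0.20 ± 0.07) was lower with groups that did not. Of 21 tested endothelial genes, 4 were higher, where 2.53% of all genes were, and 1 was lower at an unadjusted p under 0.05. Their median was 0.05 and their summed level 692 to 776 CPM in mutant THC and 704 to 743 CPM in mutant vehicle libraries, so the list as a whole overlapped.

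Dact2, an inhibitor of TGF-beta receptor signalling, was at 24.8, 26.7 and 36.5 CPM in mutant THC 1 to 3 and at 22.9, 18.3 and 19.6 CPM in mutant vehicle 1 to 3 (0.53 ± 0.14). Bex1, a neuronal adaptor protein, was at 35.1, 37.0 and 43.9 CPM in mutant THC 1 to 3 and at 31.3, 31.5 and 31.0 CPM in mutant vehicle 1 to 3 (0.31 ± 0.08). Mutant THC 3 was the highest in Dact2 and Bex1, and the other THC libraries were also above vehicle. Without mutant THC 3 the value of Dact2 was 0.35. Ears2, the mitochondrial glutamyl-tRNA synthetase, was at 0.38 ± 0.11 and the ribosomal oxygenase gene Riox2 at 0.25 ± 0.07. BC025920 (0.52 ± 0.14), Gm7334 (0.30 ± 0.08), Lrrc61 (0.28 ± 0.08) and 2810013P06Rik (0.25 ± 0.07) were also among those higher, and in none of these genes did the groups overlap.

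Clock genes lay on both sides of vehicle. Of 22 tested members, 4 were higher and 2 lower at an unadjusted p under 0.05, and the median log2 fold change was 0.03. At that p 2.53% of all genes were higher and 3.2% lower. Per2, a repressor of the clock, was at 24.3, 28 and 30.4 CPM in mutant THC 1 to 3 and at 23, 23.2 and 21.3 CPM in mutant vehicle 1 to 3 (0.29 ± 0.09). Arntl, the activator BMAL1, was at 42.3, 51.3 and 50.2 CPM in mutant THC 1 to 3 and at 38.7, 42.1 and 38.2 CPM in mutant vehicle 1 to 3 (0.27 ± 0.09). The repressors Cry1 (0.42 ± 0.15) and Cry2 (0.25 ± 0.08) were higher as well, and Nr1d2 (-0.24) and Bhlhe41 (-0.38), both repressors in the clock's side loops and named after their values were seen, were lower. The groups of Per2, Arntl and Cry1 did not overlap, though mutant THC 1 lay close to vehicle in the first 2. Cry1 was highest in mutant THC 3, the library with striatal markers, and its log2 fold change was 0.17 without it. The labels give no time of day of collection.

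Among 29 tested genes of endoplasmic reticulum stress and chaperones, 4 were higher and 2 lower at an unadjusted p under 0.05. At that p 2.53% of all genes were higher and 3.2% lower. Calr, a chaperone that binds calcium, was at 430, 394 and 412 CPM in mutant THC 1 to 3 and at 360, 328 and 376 CPM in mutant vehicle 1 to 3 (0.22 ± 0.08). Hspa1a, a heat shock protein with a near-identical copy, was at 16.1, 16.8 and 11.3 CPM in mutant THC 1 to 3 and at 20.3, 19.9 and 18.8 CPM in mutant vehicle 1 to 3 (-0.42 ± 0.14). These chaperones thus lay on opposite sides of vehicle, each with groups that did not overlap. Without mutant THC 3 the value of Hspa1a was -0.26. Of 31 tested glucocorticoid receptor and induced genes, 3 were lower and 0 higher. Cables1 was at 18.8, 14.9 and 16.3 CPM in mutant THC 1 to 3 and at 21, 23.5 and 20.5 CPM in mutant vehicle 1 to 3 (-0.38 ± 0.09), Hif3a, a hypoxia-inducible factor, was at -0.77 ± 0.21 and Plin4, a lipid droplet coat protein, at -0.90 ± 0.34. The median of that list was -0.03.

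Synaptic genes lay close to vehicle as lists. Of 40 tested glutamate receptor and postsynaptic genes, 3 were higher and 0 lower at an unadjusted p under 0.05, with a median log2 fold change of 0.05. At that p 2.53% of all genes were higher and 3.2% lower. Dlg2, the scaffold PSD-93, was at 349, 364 and 420 CPM in mutant THC 1 to 3 and at 327, 331 and 306 CPM in mutant vehicle 1 to 3 (0.23 ± 0.08). Nlgn1, an adhesion protein of excitatory synapses, was at 175, 191 and 208 CPM in mutant THC 1 to 3 and at 166, 162 and 172 CPM in mutant vehicle 1 to 3 (0.20 ± 0.07). Homer1, a scaffold of metabotropic receptors, was at 172, 190 and 315 CPM in mutant THC 1 to 3 and at 158, 158 and 173 CPM in mutant vehicle 1 to 3 (0.47 ± 0.19). All 3 were highest in mutant THC 3, the library with striatal markers, and without it Homer1 was at 0.15 and Dlg2 at 0.15. Of 38 tested GABA and interneuron genes, 1 was higher (Gabra2, above) and 1 lower, the interneuron and mossy cell marker Calb2 (-0.88 ± 0.37). These counts are near the shares over all genes at that p. Calb2 was highest in mutant vehicle 3, and its value was -0.45 without that library and -1.34 without mutant THC 1.

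The receptor that THC binds was also highest in that library. Cnr1, the CB1 receptor gene, was at 346, 332 and 687 CPM in mutant THC 1 to 3 and at 323, 326 and 328 CPM in mutant vehicle 1 to 3 (0.49 ± 0.22), and its log2 fold change was 0.06 without mutant THC 3. Of the 17 tested endocannabinoid receptors and enzymes, 1 was lower at an unadjusted p under 0.05, where 3.2% of all genes were lower. It was Abhd6, which degrades 2-arachidonoylglycerol (-0.24 ± 0.11), and the median of the list was -0.02. Srr, serine racemase, was at 89.5, 103 and 98.9 CPM in mutant THC 1 to 3 and at 90.8, 86.9 and 87.0 CPM in mutant vehicle 1 to 3 (0.14 ± 0.07). Mutant THC 1 lay inside the vehicle range of Srr and the other 2 lay above it. Of the 16 tested genes of D-serine and glycine synthesis and transport, 1 was lower at that p, where 3.2% of all genes were lower. It was the glycine transporter gene Slc6a9, at 33.1, 25.7 and 32.4 CPM in mutant THC 1 to 3 and at 34.3, 38.3 and 35.7 CPM in mutant vehicle 1 to 3 (-0.25 ± 0.10). The value of Slc6a9 was -0.14 without mutant THC 2, and that of Abhd6 was -0.14 without mutant THC 3. Disc1 had a log2 fold change of -0.18 ± 0.24, and the 18 genes of Disc1 and its scaffold partners had a median of 0.03 with 0 at an unadjusted p under 0.05.

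Striatal neuron genes gave the highest list median, 1.95 over 27 tested members, and it rested on 1 library. Adora2a, an adenosine receptor gene, was at 1.26, 1.68 and 192 CPM in mutant THC 1 to 3 and at 1.34, 1.05 and 16.3 CPM in mutant vehicle 1 to 3. Scn4b, a sodium channel subunit, was at 26.0, 36.5 and 877 CPM in mutant THC 1 to 3 and at 31.7, 30.1 and 88.4 CPM in mutant vehicle 1 to 3 (2.65 ± 1.15). Mutant THC 3 and, more weakly, mutant vehicle 3 stood apart in both genes. Without mutant THC 3 the median was -0.70, and without both libraries it was 0.07. Without both, the medians were -0.55 for class II, -0.22 for complement, -0.32 for interferon-induced and -0.49 for meningeal genes. When each mutant library was left out in turn, the members lower at an unadjusted p under 0.05 numbered 5 to 6 for class II, 3 to 9 for complement, 3 to 7 for class I, 4 to 9 for interferon-induced, 2 to 6 for NF-kB target, 2 to 7 for prostaglandin, 6 to 9 for reactive astrocyte and 3 to 21 for meningeal genes. At an unadjusted p under 0.05 there were 512 of 15917 genes without mutant THC 3 (297 lower), 401 of 15852 without both (240 lower) and 2318 of 15926 without mutant THC 1 (1220 lower). Lower genes numbered 568 of 15940 without mutant THC 2, and 567 of 15924, 423 of 15924 and 366 of 15891 without mutant vehicle 1, 2 and 3. The highest counts of complement, class I and meningeal genes were without mutant THC 1. Those of NF-kB target and prostaglandin genes were without mutant vehicle 2.

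Among the other lists, medians were 0.08 for 36 immediate early genes, 0.00 for 63 respiratory chain genes, -0.02 for 57 ribosomal protein genes, -0.08 for 22 myelin genes, -0.04 for 16 pericyte genes, -0.05 for 28 hippocampal subfield markers, 0.12 for 14 nuclear noncoding RNAs, 0.01 for 25 neurogenesis markers, -0.02 for 12 neurotrophin genes and -0.03 for 13 neuregulin and ErbB genes. At an unadjusted p under 0.05, respiratory chain, ribosomal protein, myelin, pericyte, neurotrophin and neuregulin genes had 0 members in either direction. Some of these medians moved with 1 library. The myelin median was -0.25, with 22 of 22 below 0, when mutant THC 3 was left out, and 0.08 when mutant THC 2 was. The subfield median was -0.33 when mutant THC 2 was left out, with 6 lower and 1 higher at an unadjusted p under 0.05. Over all 15940 genes tested in that fit, 568 were lower and 673 higher. In that reduced set 12 subfield markers lay lower with no overlap, against 0 with all libraries in, where 4.4% of all genes did. The share over all genes in the reduced set was not computed. Smaller groups separate more easily, so the 12 cannot be set against the 4.4%. Of the 12 iron transport genes 2 were lower at that p with all libraries in, where 3.2% of all genes were lower. They were Cp and the ferrireductase gene Steap3 (-0.40 ± 0.12), and the median of the iron list was -0.10.

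Whether THC acted differently in mutant than in control mice was tested as an interaction in the same fit, with no sample shared between the 2 contrasts. No gene passed (0%, smallest adjusted p = 0.48, edgeR quasi-likelihood test, Benjamini-Hochberg), with 1041 genes (6.59%) at an unadjusted p under 0.05, of which 699 (4.42%) were lower and 342 (2.16%) higher in the mutant contrast. DESeq2 called 34 genes, 33 of them with a lower fold change in mutants, limma-voom called 0, and edgeR called 10 without mutant THC 1. Among the 34 were Cd74, H2-Aa, H2-Ab1, H2-Eb1, C3, Serping1, Cp, Emilin1 and Col1a2. The 1 with a higher fold change was Cldn5 (0.63, DESeq2 adjusted p = 0.033). For THC in control mice edgeR called 0 genes (1106 genes, 7%, at an unadjusted p under 0.05, with 3.55% higher and 3.45% lower), limma-voom called 0 and DESeq2 called 12.

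The complement, MHC, interferon-induced, reactive astrocyte and meningeal lists, with medians below 0 for THC in mutants, had medians above 0 for THC in controls. C3 was at 1.17, 2.86 and 3.92 CPM in control THC 1 to 3 and at 1.79, 1.64 and 1.06 CPM in control vehicle 1 to 3, a log2 fold change of 0.83 ± 0.36 and an interaction of -2.45 ± 0.51 (edgeR adjusted p = 0.48). Cd74 was at 3.51, 4.37 and 2.52 CPM in control THC 1 to 3 and at 2.24, 1.56 and 1.99 CPM in control vehicle 1 to 3, with an interaction of -2.18 ± 0.39. Serping1 was at 9.0, 10.8 and 12.4 CPM in control THC 1 to 3 and at 6.58, 6.53 and 6.25 CPM in control vehicle 1 to 3, with an interaction of -1.43 ± 0.27. In these 3 genes the mutant THC libraries lay nearer the control vehicle libraries than the mutant vehicle libraries did. All 3 were named for small p-values in the mutant contrast, which is also part of the interaction. Their interactions and this nearness are therefore no separate support for a difference. Ifitm1 and Icam1 had values near 0 in controls, at 0.14 ± 0.16 and 0.01 ± 0.14. The median log2 fold changes in mutant and in control mice were -0.78 and 0.09 for class II, -0.38 and 0.12 for complement, -0.32 and 0.14 for interferon-induced, -0.26 and 0.25 for reactive astrocyte, -0.69 and 0.59 for meningeal and -0.96 and 2.50 for choroid plexus genes. The choroid plexus sum was 9904 CPM in control THC 2 against 548 to 651 CPM in the other 5 control libraries. The meningeal sum was 1093 to 1604 CPM in control THC and 802 to 953 CPM in control vehicle libraries, and its part in the interaction was not tested. Over the 15802 genes, which are not independent replicates, the fold changes in mutant and in control mice had a Pearson correlation of -0.30 and a Spearman correlation of -0.11.

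**Figure D5:**
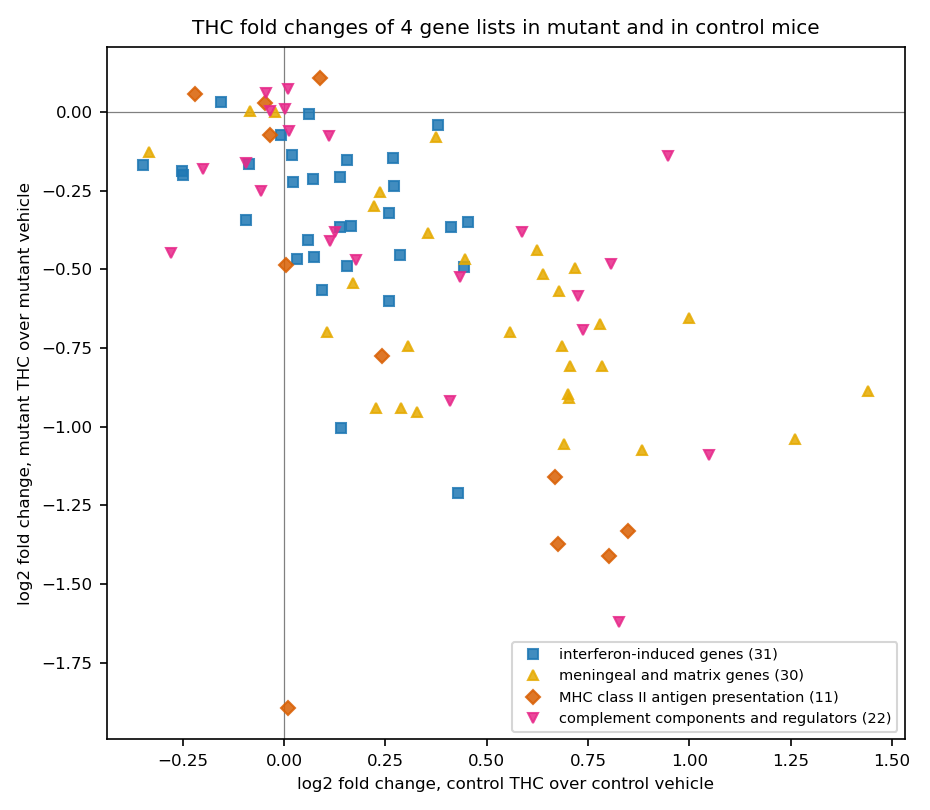
Log2 fold change of THC over vehicle in mutant mice (y axis) against that in control mice (x axis) for the members of 4 gene lists. C3 lies at -1.62 in mutant and 0.83 in control mice, and most meningeal genes lie below 0 in mutants and above 0 in controls.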

How the data were processed

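Total RNA of mouse hippocampus, depleted of ribosomal RNA, was sequenced as paired 100-base reads, per the labels' protocols. The submitters' processing notes name RSEM 1.2.21 with Bowtie2 2.2.2 and the mm10 build, along with edgeR 3.10.2, CASAVA 1.8.4 and FastQC. The authors deposited 1 table of RSEM expected counts over 23382 RefSeq rows and 12 libraries, with fractional values in 27.17 to 29.44% of the rows of a library. No source used here gives the strand setting, so reads of overlapping or antisense genes cannot be told apart, and RSEM divides reads between near-identical copies.

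The expected counts were rounded, and 23011 rows were given a symbol from RefSeq and 129 from GENCODE. Another 7 matched several symbols and 235 matched none, which held 0.676 to 0.812% of the counts. Filtering with filterByExpr left 15802 genes, and TMM factors were 0.9893 to 1.0122. The edgeR 4.0.16 quasi-likelihood F test (glmQLFit, robust) was fitted to all 12 libraries in 4 groups with 8 residual degrees of freedom, with Benjamini-Hochberg adjustment and a threshold of 0.05. CPM are TMM-normalized, and sums over lists use CPM of the whole library. SE is the size of the log2 fold change divided by the root of F. Alternatives were RLE scaling, no filter, DESeq2 1.42.0, limma-voom (limma 3.58.1), the 6 mutant libraries alone, a choroid plexus score as covariate, and leaving out each library. Leaving out both libraries with striatal markers was added after the data were seen. The code was tested on simulated data.

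Named genes are the 12 lower and 12 higher with the smallest p at a mean of at least 1 CPM in either mutant group, the 4 with the smallest p of each list, and a few given always. Some results under this rule are not reported here. Genes outside this rule are named as such, or belong to the genes DESeq2 or a reduced fit called. The members, lists and tests were chosen with earlier results of these data known. Promoters are RefSeq windows of 300 bases (GRCm38.p6). Depth was 33165903 to 41389957 counts per library, and the number of libraries limits the precision.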

Additional observations from a re-analysis of the deposited data

How the results depend on the processing

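Counts of genes past an adjusted p of 0.05 moved with the tool. DESeq2 called 3 genes for THC in mutant mice, 12 for THC in control mice and 34 for the interaction. Leaving out each library in turn gave 0 to 3 calls for THC in mutant mice and 0 to 10 for the interaction, with the highest of both without mutant THC 1. Genes at an unadjusted p under 0.05 numbered 427 in the mutant libraries alone, 401 without both libraries with striatal markers, an alternative chosen after seeing the data, and 512 to 2318 when each library was left out. Of 155 named genes, 14 turned in direction under at least 1 alternative. When each library was left out, log2 fold changes were -0.051 to 1.74 for Arpp21, -0.74 to 1.64 for Coch, -0.46 to 0.068 for Disc1, -0.062 to 0.51 for Hbegf, -0.055 to 1.95 for Pde1b, -0.063 to 0.40 for Pde4b, -0.55 to 0.0079 for Ptgs2, -0.13 to 2.00 for Rasd2, -0.68 to 3.35 for Scn4b and -0.16 to 0.78 for Tgfa, with the turned value of each without mutant THC 3. The ranges were -0.33 to 0.0029 for Aspa, turned without mutant THC 2, and -0.018 to 0.17 for Nfkbia, turned without mutant THC 1. Without both libraries with striatal markers the values were -0.57 for Coch, 0.018 for Disc1, -0.018 for Pde4b, 0.038 for Ptgs2, 0.085 for Ret and -0.050 for Tgfa. With the choroid plexus score as covariate Ntrk3 was at -0.020. The cause was not tested. The medians of 9 of the 36 lists (complement, MHC class II, MHC class I, interferon-induced, NF-kB subunits, NF-kB targets, striatal, hippocampal subfield, and neocortex, thalamus and cerebellar markers) moved by more than 1 SD under at least 1 alternative. No paired analysis was possible because the labels give the groups no shared replicate numbers, and the numbers used here follow the order of the accessions.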
